A study of Mus musculus with 52 samples.

Results

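Conventional type 1 dendritic cells (cDC1) cultured with prostaglandin E2 (PGE2) before they met poly I:C were compared with cDC1 that met poly I:C without PGE2. The comparison takes 8 of the 52 libraries of the series, chosen by their labels alone. They are 4 libraries of PGE2 for 24 h with poly I:C in the last 4 h (PGE2 plus poly I:C) and 4 libraries of untreated cells at 24 h with poly I:C in the last 4 h (poly I:C alone). PGE2 was given at 100 ng/ml and poly I:C at 10 ug/ml. Another 8 libraries, 4 with PGE2 for 24 h and 4 untreated for 24 h, had no poly I:C and serve to ask whether the effect of PGE2 differed with and without it. All cells came from bone marrow of C57BL/6 mice, grew in vitro with FLT3 ligand and GM-CSF, were sorted for CD103 and were then kept in medium with growth factors, so that no cell in any group was without these cytokines. The remaining 36 libraries of the series, taken at 4 h, were not used here. Each library has a replicate letter A to D that the labels call biological, without saying whether letters were separate animals or cultures, so the p-values rest on the variation among these libraries, which could be technical.

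cDC1 are the dendritic cells that excel at presenting antigen from dead or infected cells to CD8 T cells. Poly I:C is a synthetic double-stranded RNA that cDC1 sense through the endosomal receptor TLR3, which leads to interferons, cytokines and maturation. PGE2 is a lipid mediator made from arachidonic acid by the cyclooxygenases, and its receptors EP2 and EP4 raise cyclic AMP in the cell.

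Transcripts were counted by unique molecular identifiers at their 3′ ends, with 294646 to 405468 counts per library in PGE2 plus poly I:C and 271514 to 356089 in poly I:C alone. Levels are given in CPM, the count of a gene relative to the total of its library, with library totals scaled by the TMM method. A count of 0 allows 3 counts, which is 7.399 to 11.049 CPM of the library totals before TMM scaling, for counting error only. On the TMM scale of the levels given here the same counts are a higher CPM. A single count there was 3.28 CPM in PGE2 plus poly I:C D and 4.89 CPM in poly I:C alone B. In a principal component analysis of the 16 libraries at 24 h, the leading component held 74.2% of the variance and separated libraries with poly I:C from those without, and the next held 5% and separated libraries with PGE2 from those without.

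Of the 12 cDC1 markers checked, 11 passed the filter on low counts, and the summed level of the 12 was 3965 to 4509 CPM in PGE2 plus poly I:C and 3616 to 4264 CPM in poly I:C alone. Marker sums of other cells were lower, and their part in the results below was not tested. The 16 genes of macrophages and monocytes summed to 430.1 to 462 CPM in PGE2 plus poly I:C and 434 to 611 CPM in poly I:C alone, with Adgre1, C1qc and Mertk at 0 in all 8 libraries. Of these, 4 were tested, and Lyz2 was the called gene, lower in PGE2 plus poly I:C. The 12 genes of type 2 dendritic cells (cDC2) summed to 50.1 to 66.7 CPM in PGE2 plus poly I:C and 14.6 to 34.2 CPM in poly I:C alone, with Mgl2, Clec4a4, Esam and Cd163 at 0. Of the cDC2 genes 2 were tested, and neither was called. The genes of plasmacytoid dendritic cells summed to 777 to 1071 CPM and 531 to 713 CPM in the same order, and Bst2, which interferon also induces, was the called gene among them. Granulocyte and mast cell genes stayed at or below 15.7 CPM and lymphocyte genes at or below 18.9 CPM in sum, with Elane, Mpo, S100a8, S100a9, Cd3e, Cd79a and Ms4a1 at 0. Because these are bulk samples, fewer cells with a transcript and less of it per cell cannot be told apart.

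Of 5273 genes tested, 563 differed between PGE2 plus poly I:C and poly I:C alone at an adjusted p of at most 0.05 (10.7% called; quasi-likelihood test of edgeR with Benjamini-Hochberg adjustment, the source of every adjusted p below unless another is named). PGE2 plus poly I:C was higher for 265 genes (5.03%) and lower for 298 (5.65%). The 4 libraries of each group did not overlap for 459 of the 563. The call itself favours genes whose groups lie apart, so a lack of overlap is a description and no separate support. The share without overlap among all genes tested was not taken. With the further condition of a log2 fold change of at least 1.5, a threshold the labels name, 106 genes were left (2.01%), 62 higher and 44 lower. This last count was 54 when the 8 libraries were fitted without the other 8. The median log2 fold change of all genes tested was -0.014. Fold changes are log2 values of PGE2 plus poly I:C over poly I:C alone, and the value after the ± sign is the standard error (SE) of the fit. The gene lists described below were read by counts and medians, without a test of the list.

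Promoters of 4 of the largest or surest changes are shown because each holds 1 of the motifs that cyclic AMP, interferon or NF-kB signalling acts on. They are RefSeq sequences on GRCm38.p6 around an annotated start, 5′ to 3′ on the strand of the gene. Capitals mark matches, on either strand, to TGACGTCA (the full cyclic AMP response element), GAAANNGAA (the core of the interferon-stimulated response element) or GGGANTTTC (a kappa B site). Ifit1bl1 has 2 annotated starts, of which 1 is shown.
Ifit1bl1, chr19:34601919-34602218, minus strand: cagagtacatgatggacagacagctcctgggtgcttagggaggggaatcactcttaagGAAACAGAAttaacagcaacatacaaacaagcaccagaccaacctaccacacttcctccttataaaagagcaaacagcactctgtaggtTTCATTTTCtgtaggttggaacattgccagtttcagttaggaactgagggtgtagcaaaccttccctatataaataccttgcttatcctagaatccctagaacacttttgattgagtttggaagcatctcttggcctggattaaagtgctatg
Fscn1, chr5:142960105-142960404, plus strand: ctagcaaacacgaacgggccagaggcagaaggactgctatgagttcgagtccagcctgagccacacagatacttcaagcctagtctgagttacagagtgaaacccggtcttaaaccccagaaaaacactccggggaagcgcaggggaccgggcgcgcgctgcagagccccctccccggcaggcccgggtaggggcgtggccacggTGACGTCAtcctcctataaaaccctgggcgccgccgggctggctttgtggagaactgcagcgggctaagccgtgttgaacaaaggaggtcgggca
Ppt1, chr4:122835977-122836276, plus strand: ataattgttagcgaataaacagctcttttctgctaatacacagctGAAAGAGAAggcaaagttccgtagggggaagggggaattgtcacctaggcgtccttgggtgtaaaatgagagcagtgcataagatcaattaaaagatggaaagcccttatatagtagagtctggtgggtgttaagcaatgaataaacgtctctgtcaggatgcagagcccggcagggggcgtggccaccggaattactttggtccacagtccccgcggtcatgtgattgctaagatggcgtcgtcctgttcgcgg
Dctpp1, chr7:127260618-127260917, minus strand: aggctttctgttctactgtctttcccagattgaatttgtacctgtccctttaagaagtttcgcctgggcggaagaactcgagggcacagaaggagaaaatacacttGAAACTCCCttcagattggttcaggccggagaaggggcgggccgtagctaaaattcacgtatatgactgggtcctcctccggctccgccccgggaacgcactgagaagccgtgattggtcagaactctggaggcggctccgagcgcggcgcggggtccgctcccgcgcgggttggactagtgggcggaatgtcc
The Ifit1bl1 window holds the interferon motif on each strand, the Fscn1 window the cyclic AMP motif, the Ppt1 window the interferon motif and the Dctpp1 window the kappa B motif. The table of promoters covered 4030 tested genes, among them 203 called higher and 236 called lower. The cyclic AMP motif was in 3.94% of those called higher, 4.66% of those called lower and 3.92% of all. The interferon motif was in 14.8%, 13.6% and 9.6% of the same sets, and in 17 of 31 interferon-stimulated genes (54.8%). The kappa B motif was in 2.46%, 1.27% and 1.09%. A match is a run of letters, and binding was not measured.

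Among the cytokines and chemokines, transcripts of interferon lambda, interleukin 27, tumour necrosis factor, Ccl4, Cxcl9, Cxcl10 and Cxcl11 were lower after PGE2. Those of interleukin 1 beta, Ccl9 and Ccl22 were higher. Of 12 tested cytokine genes 5 fell and 1 rose, with a median log2 fold change of -0.35. Of 9 tested chemokine genes 4 fell and 2 rose, with a median of -0.10.

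Ifnl2 and Ifnl3 encode type III interferons and are near-identical copies, so that reads may have been split between them. Ifnl2 stood at 29.2, 18.5, 9.52 and 6.55 CPM in libraries A to D of PGE2 plus poly I:C, against 224, 200.4, 78.7 and 60.4 CPM in A to D of poly I:C alone (log2 -3.09 ± 0.41, adjusted p = 1.55e-09). Ifnl3 stood at 29.2, 22.2, 19.0 and 9.83 CPM in PGE2 plus poly I:C, against 117, 171, 86.6 and 49.0 CPM in poly I:C alone (log2 -2.38 ± 0.41, adjusted p = 2.14e-06). Both genes fell without overlap, library D was the lowest of each group, and neither gene had a count in the 8 libraries without poly I:C. Ifnb1, which encodes interferon beta, had 0 counts in PGE2 plus poly I:C and 11 counts in poly I:C alone, all in libraries B and C. With 3 counts in place of the 0 and the 11 counts taken as exact, it was 4.04-fold lower in PGE2 plus poly I:C. That value leaves out the counting error of the 11 counts, and the gene was too low to be tested.

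Il27 and Ebi3 encode the subunits of interleukin 27, a cytokine that acts on T cells. Il27 measured 255, 159, 205 and 203 CPM in PGE2 plus poly I:C and 419, 650.1, 496 and 377 CPM in poly I:C alone (log2 -1.24 ± 0.17, adjusted p = 1.55e-09). Ebi3 measured 1153, 971, 976 and 1134 CPM in PGE2 plus poly I:C and 1326, 1325, 1165 and 1513 CPM in poly I:C alone (log2 -0.33 ± 0.11, adjusted p = 0.0261). The groups did not overlap for either subunit, but the smaller change of Ebi3 lost its call without PGE2 plus poly I:C B or C or poly I:C alone D (adjusted p up to 0.153). Tnf, which encodes tumour necrosis factor, measured 251, 278, 238 and 229 CPM in PGE2 plus poly I:C and 463, 459.5, 389.7 and 260.3 CPM in poly I:C alone (log2 -0.64 ± 0.17, adjusted p = 0.00363). Library D of poly I:C alone lay among the PGE2 libraries. Il12b, the gene of the p40 subunit of interleukin 12, had 3544, 3448, 3070.0 and 2447 CPM in PGE2 plus poly I:C and 3124, 3818, 3606 and 3200.0 CPM in poly I:C alone (log2 -0.14 ± 0.09, adjusted p = 0.387). These groups overlapped and the gene was not called, as was the case for Il6 (log2 -0.07, adjusted p = 0.952) and Il15 (log2 -0.05, adjusted p = 0.913). Il12a had no count in the 16 libraries at 24 h, and Il10 had 0 counts in PGE2 plus poly I:C and 1 in poly I:C alone. Il1b, which encodes interleukin 1 beta, gave 238, 241, 233 and 190.0 CPM in PGE2 plus poly I:C and 102, 48.9, 74.8 and 30.2 CPM in poly I:C alone (log2 1.83 ± 0.25, adjusted p = 1.55e-09). It rose without overlap, with library D the lowest of each group.

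Ccl4, an inflammatory CC chemokine, gave 179.7, 159, 138 and 124.5 CPM in PGE2 plus poly I:C, against 848, 1178, 701 and 728 CPM in poly I:C alone (log2 -2.52 ± 0.16, adjusted p = 2.76e-32). Cxcl9, a CXCR3 ligand that attracts activated T cells, gave 2495, 3018, 3147 and 2542 CPM in PGE2 plus poly I:C, against 4557, 4961, 4735 and 4501 CPM in poly I:C alone (log2 -0.74 ± 0.11, adjusted p = 1.07e-05). Every library with PGE2 was below every library without it for both. Cxcl10, also a CXCR3 ligand, fell without overlap too, to 3385 to 4070.0 CPM in PGE2 plus poly I:C, against 4316 to 5166 CPM in poly I:C alone (log2 -0.38 ± 0.08, adjusted p = 0.00037). So did Cxcl11, to 167 to 252 CPM, against 332 to 391 CPM (log2 -0.78 ± 0.17, adjusted p = 0.000432). Cxcl11 is annotated as a polymorphic pseudogene, and whether these cells make a working protein from it was not measured. Ccl9 rose by 1.56 ± 0.40 (adjusted p = 0.00222), at 49.1 to 119 CPM in PGE2 plus poly I:C and 18.9 to 34.1 CPM in poly I:C alone. Ccl22, a CCR4 ligand of mature dendritic cells, rose by 0.40 ± 0.08 (adjusted p = 4.33e-05). Ccl5 (log2 0.15, adjusted p = 0.111), Ccl17 (log2 0.04, adjusted p = 0.838) and Cxcl16 (log2 -0.10, adjusted p = 0.585) were not called. Ccl3 had 10 counts in PGE2 plus poly I:C and 7 in poly I:C alone and was not tested.

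**Figure D1:**
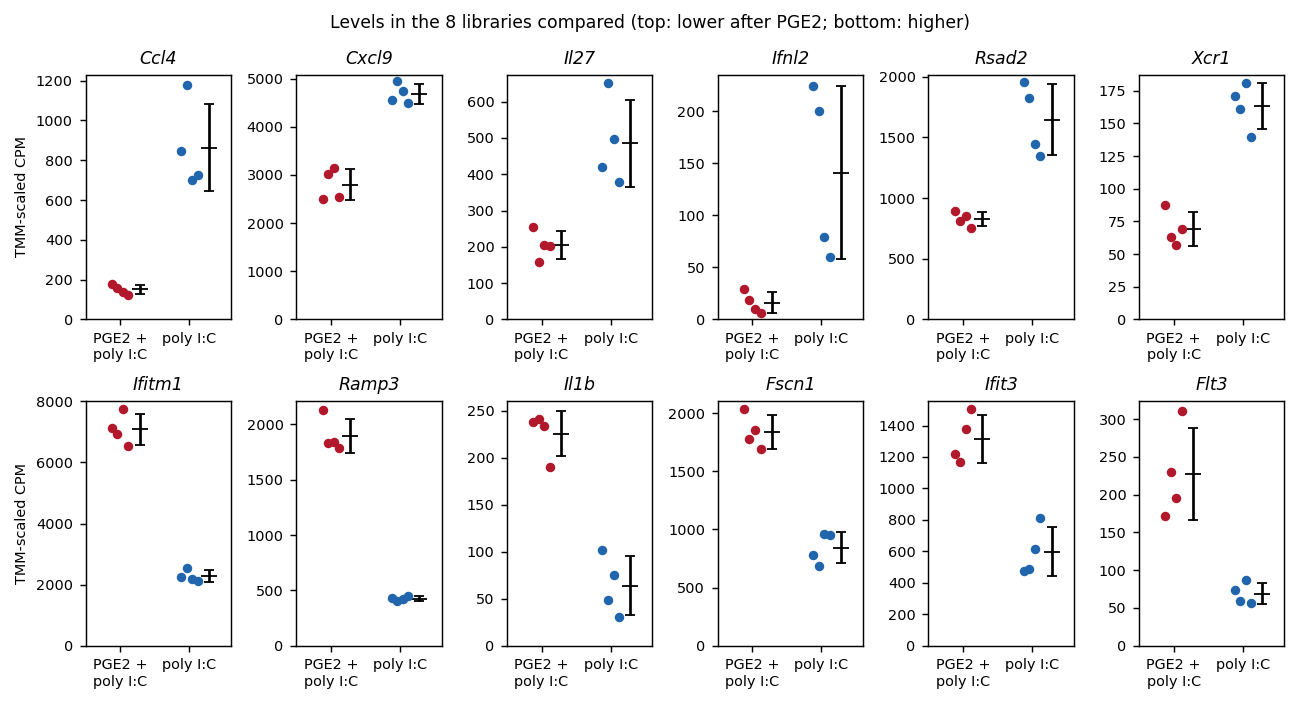
TMM-scaled CPM (vertical axis, from 0) of 12 genes in the 4 libraries of PGE2 plus poly I:C (left) and the 4 of poly I:C alone (right), with the mean and SD (n = 4 each). The upper row holds genes lower after PGE2, such as Ccl4 at 124.5 to 179.7 CPM against 701 to 1178 CPM, and the lower row genes higher after PGE2, such as Ramp3 at 1786 to 2127 CPM against 401 to 449 CPM.

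The interferon-stimulated genes did not move one way. Of 39 tested, 6 rose, 7 fell and 26 were not called, and the median log2 fold change was 0.01. DESeq2 called 6 higher and 5 lower, and at an unadjusted p under 0.05 there were 12 rises and 8 falls. Their summed level was 30480.0 to 31110.0 CPM in PGE2 plus poly I:C and 29030.0 to 31960.0 CPM in poly I:C alone.

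Rsad2, which encodes the antiviral enzyme viperin, stood at 890.1, 812, 852 and 757 CPM in PGE2 plus poly I:C and 1959, 1828, 1449 and 1351 CPM in poly I:C alone (log2 -0.99 ± 0.11, adjusted p = 1.67e-14). Cmpk2, a nucleotide kinase gene next to Rsad2 in the genome, stood at 689.6 to 832 CPM in PGE2 plus poly I:C and 1132 to 1325 CPM in poly I:C alone (log2 -0.69 ± 0.11, adjusted p = 4.16e-07). Both fell without overlap, as did Oasl1 (log2 -0.40 ± 0.08, adjusted p = 8.57e-05) and Ifih1, the gene of the RNA sensor MDA5 (log2 -0.57 ± 0.11, adjusted p = 3.78e-05). Ifih1 was the 1 called gene among the 14 tested for TLR3 and RNA sensing, where 0 rose, and 0 would have at an unadjusted p under 0.05 or by DESeq2. Tlr3 itself had 4 counts in PGE2 plus poly I:C and 3 in poly I:C alone and was not tested. The falls of Ifit1 (log2 -0.29 ± 0.10, adjusted p = 0.0334), Ifit2 (log2 -0.38 ± 0.13, adjusted p = 0.0386) and Irgm1 (log2 -0.41 ± 0.12, adjusted p = 0.0164) were small and were not called in every fit that left out 1 library. Their log2 fold changes stayed at -0.35 to -0.25, -0.49 to -0.31 and -0.50 to -0.36 in these fits. Ifit1 lost the call without PGE2 plus poly I:C D or poly I:C alone A, B or D (adjusted p up to 0.133). Ifit2 lost it without PGE2 plus poly I:C B or D or poly I:C alone A or D (adjusted p up to 0.177), and Irgm1 without PGE2 plus poly I:C C or poly I:C alone B or D (adjusted p up to 0.0701).

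Ifit3, of the same gene cluster as Ifit1 and Ifit2, went the other way at 1220.0, 1168, 1376 and 1504 CPM in PGE2 plus poly I:C and 478, 489, 614 and 815 CPM in poly I:C alone (log2 1.12 ± 0.12, adjusted p = 1.03e-14). Its close copy Ifit3b, with which it may share reads, rose as well (log2 0.87 ± 0.15, adjusted p = 3.55e-06). Gbp2, a guanylate-binding protein of cell-autonomous defence, stood at 2225 to 2428 CPM in PGE2 plus poly I:C and 1056 to 1384 CPM in poly I:C alone (log2 0.91 ± 0.10, adjusted p = 4.76e-15). None of these groups overlapped, nor did those of Bst2, which tethers budding virus (log2 0.75 ± 0.12, adjusted p = 8.45e-07), and the exonuclease gene Isg20 (log2 0.43 ± 0.10, adjusted p = 0.00124). Irf7, the transcription factor that amplifies interferon, rose to 1902 to 2274 CPM in PGE2 plus poly I:C, against 1468 to 1762 CPM in poly I:C alone (log2 0.31 ± 0.10, adjusted p = 0.023), and lost the call without PGE2 plus poly I:C C or D or poly I:C alone C (adjusted p up to 0.201). Isg15 (log2 0.27, adjusted p = 0.0743) had 1848 to 2085 CPM in PGE2 plus poly I:C and 1477 to 1755 CPM in poly I:C alone, apart but not called. Ifit1bl1, a relative of Ifit1 outside the list whose promoter is printed above, stood at 514, 571, 709 and 505 CPM in PGE2 plus poly I:C and 68.2, 97.8, 173 and 158.5 CPM in poly I:C alone (log2 2.16 ± 0.18, adjusted p = 3.63e-22), again without overlap.

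The 3 tested Ifitm genes, which encode membrane proteins that block virus entry, all rose, though near-identical stretches may have split reads among them. Ifitm1 stood at 7134, 6934, 7736 and 6530.0 CPM in PGE2 plus poly I:C and 2261, 2552, 2189 and 2109 CPM in poly I:C alone, the smallest adjusted p of all genes tested (log2 1.64 ± 0.08, adjusted p = 4.75e-46). Ifitm3 stood at 4587 to 5189 CPM in PGE2 plus poly I:C and 2499 to 3026 CPM in poly I:C alone (log2 0.86 ± 0.09, adjusted p = 1.05e-16), and Ifitm2 at 1350.0 to 1661 CPM and 760.3 to 1075 CPM (log2 0.77 ± 0.10, adjusted p = 5.42e-10). No library overlapped for any of them.

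**Figure D2:**
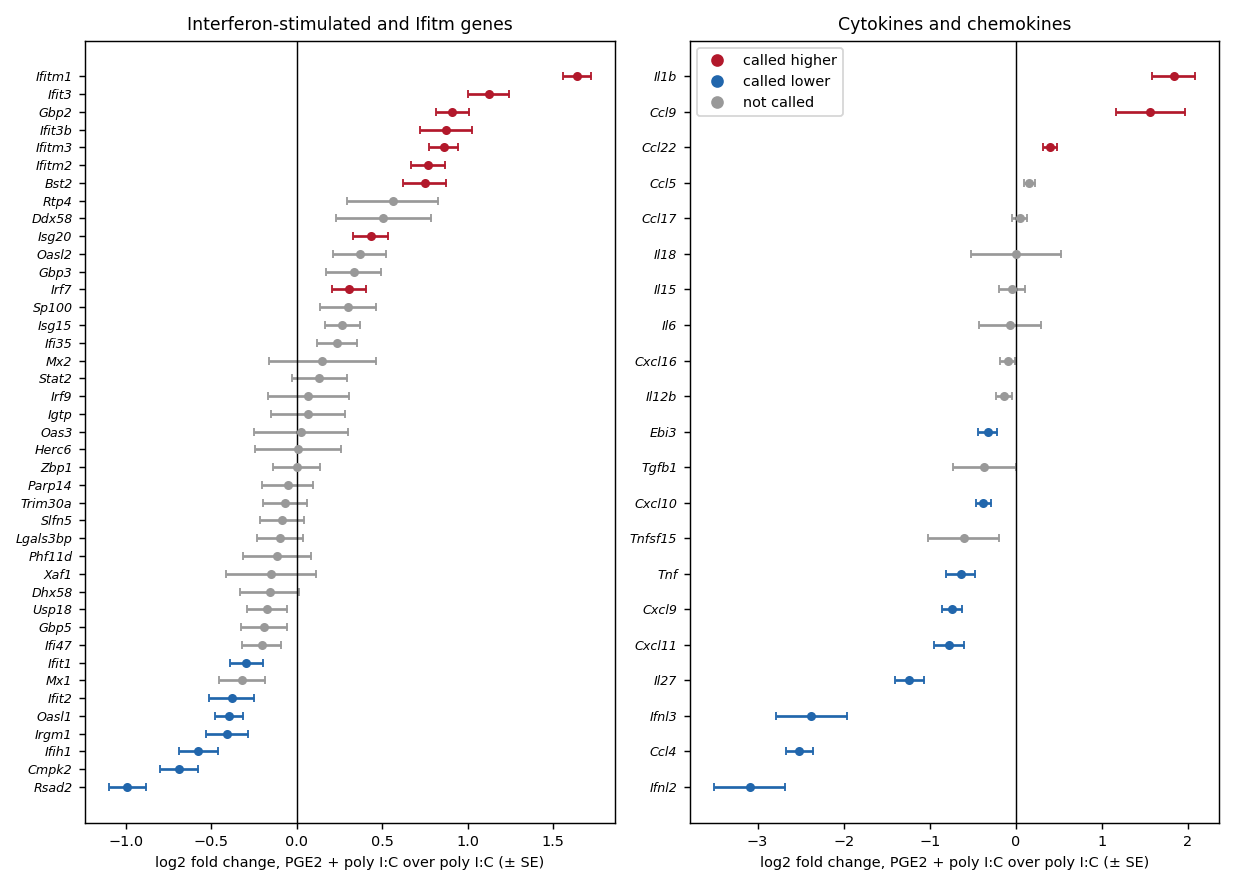
Log2 fold change of PGE2 plus poly I:C over poly I:C alone (horizontal axis, points with SE bars) for genes tested from the interferon-stimulated and Ifitm lists (left) and of the cytokine and chemokine lists (right), red where called higher, blue where called lower, grey where not called. Called interferon-stimulated genes lie on both sides of 0, from -0.99 (Rsad2) to 1.12 (Ifit3), with Ifitm1 at 1.64, and 9 of the 12 called cytokine and chemokine genes lie below 0, down to -3.09 (Ifnl2).

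Genes of cDC1 identity were split, with 4 of 22 tested higher, 4 lower and a median log2 fold change of 0.12. Xcr1, the chemokine receptor that marks cDC1 and binds XCL1 from T and natural killer cells, stood at 87.8, 63.0, 57.1 and 68.8 CPM in PGE2 plus poly I:C and 171, 161, 181 and 139.6 CPM in poly I:C alone (log2 -1.23 ± 0.23, adjusted p = 1.75e-05). Ppt1, a lysosomal thioesterase gene with high expression in cDC1, stood at 71.0, 74.2, 128.5 and 81.9 CPM in PGE2 plus poly I:C and 346, 293, 319 and 317 CPM in poly I:C alone (log2 -1.86 ± 0.18, adjusted p = 6.04e-17). Both fell without overlap, as did Naaa (log2 -0.74 ± 0.19, adjusted p = 0.00204) and Ifi205 (log2 -0.61 ± 0.12, adjusted p = 4.65e-05). DESeq2 did not call Ifi205 (adjusted p = 0.055), and the other named genes that it did not call are listed with the alternative fits below.

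Irf8, the transcription factor on which cDC1 depend, stood at 3485, 3589, 3085 and 3296 CPM in PGE2 plus poly I:C and 2403, 2556, 2649 and 3045 CPM in poly I:C alone (log2 0.34 ± 0.08, adjusted p = 0.00119). It rose, with the lowest library of one group just above the highest of the other. Flt3, the receptor of the growth factor FLT3 ligand, stood at 171, 229.9, 195 and 311 CPM in PGE2 plus poly I:C and 73.1, 58.7, 86.6 and 56.6 CPM in poly I:C alone (log2 1.74 ± 0.22, adjusted p = 6.35e-11). Plet1, a surface protein gene, stood at 995 to 1271 CPM in PGE2 plus poly I:C and 421 to 606 CPM in poly I:C alone (log2 1.09 ± 0.11, adjusted p = 1.05e-16). Both rose without overlap. Gcsam rose with overlapping groups (log2 1.18 ± 0.38, adjusted p = 0.0265) and lost the call without PGE2 plus poly I:C B or poly I:C alone A, C or D (adjusted p up to 0.153), while its log2 fold change was 1.92 without poly I:C alone B. Batf3, the partner of Irf8, was not called at 104.5 to 121 CPM in PGE2 plus poly I:C and 90.5 to 107.5 CPM in poly I:C alone (adjusted p = 0.782). Clec9a, the cDC1 receptor for dead cells, had 14 counts in PGE2 plus poly I:C and 11 in poly I:C alone (adjusted p = 0.901).

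In the migration and cytoskeleton list 5 of 15 tested genes rose and 0 fell, with a median log2 fold change of 0.32. At an unadjusted p under 0.05, 0 fell, and DESeq2 called 0 lower. Fscn1, which bundles actin in the protrusions of mature dendritic cells and whose promoter is printed above, stood at 2039, 1780.0, 1852 and 1694 CPM in PGE2 plus poly I:C and 779.7, 684, 960.4 and 955 CPM in poly I:C alone (log2 1.11 ± 0.11, adjusted p = 2.73e-17). Ccr1, a receptor of inflammatory chemokines, stood at 62.7, 141, 105 and 115 CPM in PGE2 plus poly I:C and 34.1, 24.4, 39.4 and 26.4 CPM in poly I:C alone (log2 1.76 ± 0.30, adjusted p = 1.86e-06). Both rose without overlap. Marcksl1, an actin regulator, also rose without overlap (log2 0.32 ± 0.08, adjusted p = 0.00104), and the calcium channel subunit gene Cacnb3 rose with overlap (log2 0.56 ± 0.12, adjusted p = 0.000282). Ccl22, described above, is the remaining member that rose. Ccr7, which guides dendritic cells to lymph nodes, had 8722, 7964, 7564 and 7129 CPM in PGE2 plus poly I:C and 8061, 8173, 7561 and 6558 CPM in poly I:C alone (log2 0.05 ± 0.08, adjusted p = 0.799). Its groups overlapped and it was not called.

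Of 16 tested genes of costimulation and T cell contact 4 rose and 2 fell (median log2 fold change 0.20). Cd83, a maturation marker that stabilises MHC class II on the surface, stood at 5575, 5829, 5627 and 5855 CPM in PGE2 plus poly I:C and 3782, 4321, 3905 and 3965 CPM in poly I:C alone (log2 0.52 ± 0.08, adjusted p = 7.28e-08). Cd40, through which helper T cells license dendritic cells, stood at 1442, 1290.0, 1242 and 1196 CPM in PGE2 plus poly I:C and 1691, 1554, 1988 and 1970.0 CPM in poly I:C alone (log2 -0.48 ± 0.10, adjusted p = 0.000134). Neither overlapped, so that Cd83 rose where Cd40 fell. Sema7a, a membrane-anchored semaphorin gene, rose to 238 to 305 CPM in PGE2 plus poly I:C, against 70.8 to 121 CPM in poly I:C alone (log2 1.46 ± 0.22, adjusted p = 1.94e-08). Havcr2, the gene of the inhibitory receptor TIM-3, rose to 243 to 318 CPM, against 146 to 189 CPM (log2 0.74 ± 0.18, adjusted p = 0.00175). Slamf7, an adhesion receptor gene, fell to 154 to 234 CPM in PGE2 plus poly I:C, against 366 to 494 CPM in poly I:C alone (log2 -1.11 ± 0.17, adjusted p = 3.73e-08). None of these overlapped. The adhesion gene Icam1 rose (log2 0.26 ± 0.09, adjusted p = 0.0319) but lost the call without PGE2 plus poly I:C A, B, C or D or poly I:C alone A or C (adjusted p up to 0.227). Cd86 had 1550.0 to 1695 CPM in PGE2 plus poly I:C and 1437 to 1481 CPM in poly I:C alone, apart but not called (adjusted p = 0.321). Cd80 (log2 -0.12, adjusted p = 0.908) and Cd274, the gene of PD-L1 (log2 0.24, adjusted p = 0.431), were not called either.

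Immunoregulatory genes gave 3 rises and 3 falls among 14 tested (median log2 fold change 0.10). Il4i1, a secreted amino acid oxidase that restrains T cells, stood at 2453, 2247, 2175 and 2674 CPM in PGE2 plus poly I:C and 779.7, 821, 1145 and 1272 CPM in poly I:C alone (log2 1.24 ± 0.10, adjusted p = 3.54e-22). Ido1, which degrades tryptophan, stood at 602, 467, 599.8 and 695 CPM in PGE2 plus poly I:C and 370.4, 411, 346 and 423 CPM in poly I:C alone (log2 0.61 ± 0.14, adjusted p = 0.000863). Both rose without overlap. Socs1, a feedback inhibitor of interferon signalling, fell to 545 to 609 CPM in PGE2 plus poly I:C, against 870.1 to 1004 CPM in poly I:C alone (log2 -0.75 ± 0.12, adjusted p = 7.58e-08). Entpd1, the gene of the ectonucleotidase CD39, fell to 42.6 to 48.2 CPM, against 97.8 to 129.9 CPM (log2 -1.37 ± 0.27, adjusted p = 4.02e-05), and neither overlapped. Socs2 rose (log2 0.43 ± 0.15, adjusted p = 0.0474) and lost the call without PGE2 plus poly I:C A, B or C or poly I:C alone B, C or D (adjusted p up to 0.248). Lgals9, the gene of galectin 9, fell (log2 -0.46 ± 0.16, adjusted p = 0.0436) and lost the call without PGE2 plus poly I:C A, C or D or poly I:C alone A, B, C or D (adjusted p up to 0.161).

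Of the genes of the PGE2 receptors EP2 and EP4, that of EP2 was low in count. Ptger4, the gene of EP4, had 146, 174, 105 and 144 CPM in PGE2 plus poly I:C and 141, 132, 146 and 151 CPM in poly I:C alone (log2 0.01 ± 0.23, adjusted p = 0.991). These groups overlapped and the gene was not called. Ptger2, the gene of EP2, had 5 counts in PGE2 plus poly I:C and 1 in poly I:C alone, a ratio of 4.53 with an exact counting interval of 0.507 to 214. In the prostaglandin list 1 of 10 tested genes fell and 0 rose, with 0 rises also at an unadjusted p under 0.05 or by DESeq2. That gene, Ptges3, a cochaperone also known as a PGE2 synthase (log2 -0.58 ± 0.18, adjusted p = 0.0185), lost the call without PGE2 plus poly I:C B or poly I:C alone C (adjusted p up to 0.13).

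Of 11 tested genes listed as targets of cyclic AMP and CREB 4 rose and 2 fell (median log2 fold change 0.50). The list was drawn up with earlier results of these data known, and whether CREB acts on its members here was not tested. Ramp3, a partner of receptors for calcitonin-family peptides, stood at 2127, 1835, 1837 and 1786 CPM in PGE2 plus poly I:C and 434, 401, 421 and 449 CPM in poly I:C alone (log2 2.15 ± 0.12, adjusted p = 6.01e-41). Pde4b, a phosphodiesterase gene whose product degrades cyclic AMP, stood at 372, 311.5, 257 and 269 CPM in PGE2 plus poly I:C and 136.5, 127, 201 and 113 CPM in poly I:C alone (log2 1.06 ± 0.19, adjusted p = 7.28e-06). Both rose without overlap, and so did the phosphatase gene Dusp1 (log2 0.99 ± 0.27, adjusted p = 0.00488) and Junb, a subunit of AP-1 (log2 0.50 ± 0.09, adjusted p = 4.36e-06). Cited2 fell (log2 -0.47 ± 0.14, adjusted p = 0.0154) and lost the call without PGE2 plus poly I:C D (adjusted p = 0.0864). Nr4a3 fell (log2 -0.37 ± 0.12, adjusted p = 0.0233) and lost it without PGE2 plus poly I:C C or D or poly I:C alone C or D (adjusted p up to 0.13). Crem, a cyclic AMP-responsive regulator, was not called (log2 0.06, adjusted p = 0.946).

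Among NF-kB subunits and targets 9 of 23 tested genes rose and 0 fell, with a median log2 fold change of 0.26. At an unadjusted p under 0.05 1 gene fell, and DESeq2 called 7 higher and 0 lower. Nfkbia, the inhibitor that NF-kB induces against itself, stood at 4814, 4546, 4603 and 4862 CPM in PGE2 plus poly I:C and 3031, 3026, 3098 and 3388 CPM in poly I:C alone (log2 0.58 ± 0.08, adjusted p = 3.96e-09). Bcl3, an atypical member of the inhibitor family, stood at 217, 237, 195 and 314.5 CPM in PGE2 plus poly I:C and 132, 83.1, 126 and 86.8 CPM in poly I:C alone (log2 1.19 ± 0.21, adjusted p = 5.95e-06). Both rose without overlap. Tnfaip2 (log2 1.00 ± 0.14, adjusted p = 1.98e-07), the NF-kB inhibitor gene Tnip1 (log2 0.78 ± 0.18, adjusted p = 0.000463) and the subunit gene Rel (log2 0.59 ± 0.15, adjusted p = 0.00305) rose without overlap too. Relb, the subunit of the noncanonical pathway, rose (log2 0.34 ± 0.10, adjusted p = 0.00809) and lost the call without PGE2 plus poly I:C D (adjusted p = 0.0661). Malt1, a signalling protease gene, rose (log2 1.10 ± 0.36, adjusted p = 0.029) and lost it without PGE2 plus poly I:C A or D or poly I:C alone B, C or D (adjusted p up to 0.126). Nfkbie, another inhibitor, rose (log2 0.44 ± 0.15, adjusted p = 0.0403) and lost it without PGE2 plus poly I:C A, B or D or poly I:C alone B, C or D (adjusted p up to 0.224). Icam1, given above, is the remaining one.

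**Figure D3:**
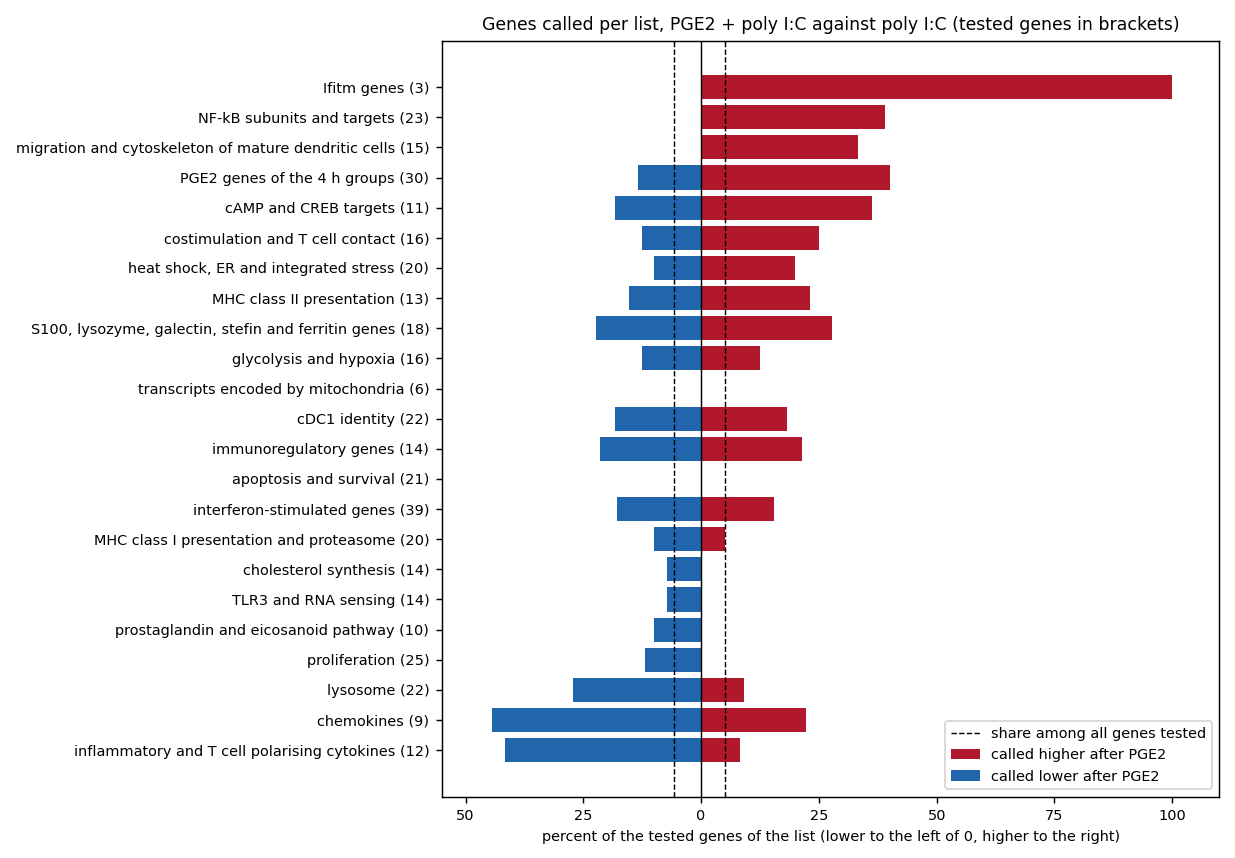
Percent of the tested genes of each list called higher (right of 0) and called lower (left of 0) in PGE2 plus poly I:C against poly I:C alone, with dashed lines at the shares among all genes tested, 5.03% higher and 5.65% lower. The NF-kB list has 9 of 23 genes higher and the migration list 5 of 15, with 0 lower in each, while the cytokine list has 5 of 12 lower and 1 higher.

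For MHC class II presentation 3 of 13 tested genes rose and 2 fell (median log2 fold change -0.04). Ciita, the transcription factor that drives MHC class II genes, stood at 602, 504, 490.3 and 547 CPM in PGE2 plus poly I:C and 351, 318, 331 and 283 CPM in poly I:C alone (log2 0.75 ± 0.14, adjusted p = 8.52e-06). It rose without overlap, while the class II chain genes H2-Aa (log2 -0.07, adjusted p = 0.56), H2-Ab1 (log2 -0.04, adjusted p = 0.765) and H2-Eb1 (log2 0.01, adjusted p = 0.97) and the invariant chain gene Cd74 (log2 -0.09, adjusted p = 0.471) were not called. H2-Eb2 (log2 1.61 ± 0.43, adjusted p = 0.00423) and the protease gene Ctss (log2 0.47 ± 0.10, adjusted p = 0.000457) rose, Ctss with overlap. H2-DMa, of the peptide editor of class II (log2 -0.44 ± 0.10, adjusted p = 0.000892), and H2-Ob, of its inhibitor (log2 -0.87 ± 0.22, adjusted p = 0.00188), fell. The H2 genes resemble each other, and reads may have been split among them.

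For MHC class I presentation and the proteasome 1 of 20 tested genes rose and 2 fell (median log2 fold change -0.08). Psmb10, an immunoproteasome subunit gene, rose (log2 0.40 ± 0.11, adjusted p = 0.00516) and lost the call without poly I:C alone C (adjusted p = 0.0527). The peptide transporter gene Tap1 fell (log2 -0.38 ± 0.12, adjusted p = 0.0166) and lost it without poly I:C alone D (adjusted p = 0.0825). The chaperone gene Calr fell (log2 -0.38 ± 0.12, adjusted p = 0.0235) and lost it without PGE2 plus poly I:C A or poly I:C alone D (adjusted p up to 0.099).

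In the lysosome list 6 of 22 tested genes fell and 2 rose (median log2 fold change -0.36), while DESeq2 called 3 lower and 2 higher. Psap, the precursor of the saposins, stood at 184, 159, 209.5 and 256 CPM in PGE2 plus poly I:C and 463, 381, 366 and 389 CPM in poly I:C alone (log2 -0.97 ± 0.15, adjusted p = 6.82e-08). Cd63, a tetraspanin of late endosomes, stood at 221.5, 222.5, 262 and 183.5 CPM in PGE2 plus poly I:C and 29.2, 24.4, 31.5 and 30.2 CPM in poly I:C alone (log2 2.91 ± 0.28, adjusted p = 2.73e-17). Psap fell and Cd63 rose, each without overlap. The pseudogene Cd63-ps, which may take reads of Cd63, also rose (log2 2.72 ± 0.42, adjusted p = 6.82e-08; log2 3.34 without poly I:C alone C), as did the cathepsin gene Ctsh (log2 1.05 ± 0.22, adjusted p = 0.000113). Further falls kept their sign but not their call in every fit that left out 1 library. Man2b1, a mannosidase gene (log2 -0.61, adjusted p = 0.031), lost the call without PGE2 plus poly I:C B, C or D or poly I:C alone A or D (adjusted p up to 0.128). The cathepsin gene Ctsb (log2 -0.60, adjusted p = 0.031) lost it without PGE2 plus poly I:C B, C or D or poly I:C alone B, C or D (adjusted p up to 0.191). Progranulin (Grn, log2 -0.42, adjusted p = 0.0391) lost it without PGE2 plus poly I:C B or C or poly I:C alone A or C (adjusted p up to 0.287), and Laptm5 (log2 -0.39, adjusted p = 0.0172) without PGE2 plus poly I:C C or D or poly I:C alone B or C (adjusted p up to 0.0763).

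In the list of S100, lysozyme, galectin, stefin and ferritin genes 5 of 18 tested rose and 4 fell (median log2 fold change 0.05). S100a4, a calcium-binding protein of motile cells, stood at 318, 404, 338 and 314.5 CPM in PGE2 plus poly I:C and 127, 127, 173 and 124.5 CPM in poly I:C alone (log2 1.31 ± 0.18, adjusted p = 9.52e-10). Lgals3, the gene of galectin 3, stood at 7857, 8279, 8021 and 7392 CPM in PGE2 plus poly I:C and 11020.0, 13610.0, 10400.0 and 11780.0 CPM in poly I:C alone (log2 -0.57 ± 0.07, adjusted p = 6.74e-11). S100a4 rose and Lgals3 fell, each without overlap. S100a6 (log2 1.00 ± 0.11, adjusted p = 4.02e-13), S100a10 (log2 0.48 ± 0.09, adjusted p = 1.86e-05), the properdin gene Cfp (log2 1.00 ± 0.17, adjusted p = 2.67e-06) and the ferritin gene Fth1 (log2 0.32 ± 0.07, adjusted p = 0.000122) rose. The groups of Fth1 overlapped. Lyz2, the lysozyme gene of myeloid cells, fell to 265 to 305 CPM in PGE2 plus poly I:C, against 324.5 to 513 CPM in poly I:C alone (log2 -0.60 ± 0.14, adjusted p = 0.000591). The stefin gene Stfa2 fell (log2 -2.33 ± 0.45, adjusted p = 3.07e-05), and the thioredoxin gene Txn1 fell (log2 -0.27 ± 0.08, adjusted p = 0.00943) but lost the call without poly I:C alone B (adjusted p = 0.0594).

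Of 20 tested stress genes 4 rose and 2 fell (median log2 fold change 0.13). Atf3, a stress-induced transcription factor, stood at 91.9, 85.3, 105 and 164 CPM in PGE2 plus poly I:C and 273, 215, 264 and 215 CPM in poly I:C alone (log2 -1.09 ± 0.22, adjusted p = 4.33e-05). It fell without overlap. Hspa8, a constitutive cytosolic chaperone gene, rose to 1014 to 1208 CPM in PGE2 plus poly I:C, against 672.5 to 811 CPM in poly I:C alone (log2 0.55 ± 0.11, adjusted p = 2.34e-05), also without overlap. Hspa1a (log2 0.41, adjusted p = 0.00157) and Hspa1b (log2 0.60, adjusted p = 0.00312), near-identical genes that may share reads, rose, as did Hsp90ab1 (log2 0.33, adjusted p = 0.00587). Hspa1a lost the call without PGE2 plus poly I:C A (adjusted p = 0.0618), and Hsp90ab1 without poly I:C alone B (adjusted p = 0.0502). Hspa5, the chaperone of the endoplasmic reticulum, fell (log2 -0.30, adjusted p = 0.023) and lost the call without PGE2 plus poly I:C C or D or poly I:C alone B or D (adjusted p up to 0.0841).

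Among 16 tested genes of glycolysis and hypoxia 2 rose and 2 fell (median log2 fold change -0.10). Hif1a, the oxygen-regulated transcription factor, stood at 188, 189, 186 and 197 CPM in PGE2 plus poly I:C and 97.5, 107.5, 90.5 and 109 CPM in poly I:C alone (log2 0.91 ± 0.23, adjusted p = 0.0017). It rose without overlap, as did Pfkfb3, whose product stimulates glycolysis (log2 0.66 ± 0.16, adjusted p = 0.00116). The pyruvate kinase gene Pkm fell (log2 -0.48 ± 0.10, adjusted p = 0.000301), and the lactate dehydrogenase gene Ldha fell (log2 -0.25 ± 0.08, adjusted p = 0.0265) but lost the call without PGE2 plus poly I:C A or B or poly I:C alone B or D (adjusted p up to 0.137).

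Of 25 tested proliferation genes 3 fell and 0 rose (median log2 fold change -0.48), and DESeq2 called 0 in either direction, while at an unadjusted p under 0.05 there were 6 falls and 1 rise. All 3 had few counts and did not pass the low-count filter in the fit of the 8 libraries alone. Plk1, a mitotic kinase gene, had 4 counts in PGE2 plus poly I:C and 17 in poly I:C alone (log2 -2.11, or -2.72 without PGE2 plus poly I:C C), and lost the call without PGE2 plus poly I:C A, B or D or poly I:C alone A, C or D (adjusted p up to 0.167). Stmn1, a microtubule regulator, had 8 and 24 counts in the same groups and lost it without PGE2 plus poly I:C A, B, C or D or poly I:C alone A, C or D (adjusted p up to 0.143). Mcm6, of the replicative helicase, had 23 and 46 counts and lost it without PGE2 plus poly I:C A, B, C or D or poly I:C alone A or C (adjusted p up to 0.176). In cholesterol synthesis 1 of 14 tested genes fell (Pmvk, log2 -0.43 ± 0.11, adjusted p = 0.00158) and 0 rose, with 0 rises also at an unadjusted p under 0.05 or by DESeq2. The groups of Pmvk overlapped. Of 4 tested pattern receptor genes 1 rose, the signalling adaptor gene Tyrobp (log2 0.31 ± 0.10, adjusted p = 0.0278), which lost the call without PGE2 plus poly I:C C or D or poly I:C alone A or D (adjusted p up to 0.227). None of 21 tested genes of apoptosis and survival was called by edgeR, with 1 higher and 1 lower at an unadjusted p under 0.05 and 0 by DESeq2. None of 6 tested transcripts encoded by mitochondria was called by edgeR, with 3 higher and 0 lower at an unadjusted p under 0.05 and 0 by DESeq2.

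The 12 largest rises among called genes that did not overlap and reached 20 CPM in a group came in part from sparse counts. Of these, Tmem8, Ppfia1, Asb2, Rnf125, Mier2 and Dhx36 did not pass the low-count filter in the fit of the 8 libraries alone. They were tested only with the libraries without poly I:C in the fit. Tmem8 had 46 counts in PGE2 plus poly I:C and 2 in poly I:C alone, a ratio of 20.9 with an exact counting interval of 5.46 to 177, with both counts in library C. Ppfia1, a liprin gene, had 23 and 1 counts in the same groups, a ratio of 20.9 with an exact counting interval of 3.39 to 859, with the single count in library B. Klrd1, the gene of the natural killer receptor chain CD94, stood at 46.0, 63.0, 114 and 95.0 CPM in PGE2 plus poly I:C and 9.75, 0, 7.87 and 3.77 CPM in poly I:C alone (log2 3.78 ± 0.52, adjusted p = 1.27e-09). Dll4, a ligand of Notch receptors, stood at 150.4, 77.9, 95.2 and 88.5 CPM in PGE2 plus poly I:C and 4.87, 0, 0 and 34.0 CPM in poly I:C alone (log2 3.21 ± 0.47, adjusted p = 2.08e-08). Both rose without overlap, and in poly I:C alone Dll4 was seen mainly in library D, without which its log2 fold change was 5.74. Capg, an actin-capping protein, stood at 87.8, 111, 85.7 and 147 CPM in PGE2 plus poly I:C and 9.75, 19.6, 19.7 and 15.1 CPM in poly I:C alone (log2 2.74 ± 0.38, adjusted p = 1.76e-09). Hvcn1, a proton channel gene that is not among the 12, had 38 counts in PGE2 plus poly I:C and 7 in poly I:C alone (log2 2.23 ± 0.58, adjusted p = 0.00301). It did not pass the low-count filter in the fit of the 8 libraries alone either. The others were Cd63 and Cd63-ps, given above, the ubiquitin ligase genes Asb2 (log2 2.69 ± 0.67, adjusted p = 0.00188) and Rnf125 (log2 2.50 ± 0.63, adjusted p = 0.00216), Mier2 (log2 2.45 ± 0.67, adjusted p = 0.00563), Epsti1 (log2 2.36 ± 0.53, adjusted p = 0.000371) and the helicase gene Dhx36 (log2 2.36 ± 0.64, adjusted p = 0.00488). Epsti1 stood at 71.0, 63.0, 52.4 and 45.9 CPM in PGE2 plus poly I:C and 19.5, 29.3, 0 and 0 CPM in poly I:C alone, and its log2 fold change was 3.29 without poly I:C alone B. Rnf125 stood at 37.6, 48.2, 28.6 and 16.4 CPM in PGE2 plus poly I:C and 9.75, 0, 11.8 and 0 CPM in poly I:C alone, and its log2 fold change was 3.27 without poly I:C alone C. Both thus had sizes that depended on 1 library with few counts. AW112010, annotated as a long noncoding RNA, was among the 10 smallest adjusted p, at 6068, 7805, 7359 and 7034 CPM in PGE2 plus poly I:C and 1667, 1779, 1803 and 2019 CPM in poly I:C alone (log2 1.96 ± 0.10, adjusted p = 4.32e-23).

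Of the 12 largest falls by the same rule, Ifnl2, Ifnl3, Ccl4 and Stfa2 have been given. Pou3f1, a transcription factor gene, stood at 20.9, 7.42, 14.3 and 16.4 CPM in PGE2 plus poly I:C and 58.5, 73.3, 70.8 and 56.6 CPM in poly I:C alone (log2 -2.11 ± 0.47, adjusted p = 0.000343). Rab32, a GTPase of lysosome-related organelles, stood at 20.9, 22.2, 4.76 and 13.1 CPM in PGE2 plus poly I:C and 87.7, 78.2, 59.0 and 71.7 CPM in poly I:C alone (log2 -2.20 ± 0.38, adjusted p = 1.58e-06). M1ap stood at 33.3 to 62.7 CPM in PGE2 plus poly I:C and 161 to 224 CPM in poly I:C alone (log2 -1.89 ± 0.28, adjusted p = 2.47e-08). The others were the replication gene Gins2 (log2 -2.61 ± 0.58, adjusted p = 0.000338), the fucosidase gene Fuca2 (log2 -2.60 ± 0.44, adjusted p = 1.07e-06), the amino acid transporter gene Slc38a1 (log2 -2.31, adjusted p = 0.00668), Exosc8 of the RNA exosome (log2 -2.01, adjusted p = 0.015) and the nucleotide hydrolase gene Dctpp1 (log2 -1.95, adjusted p = 0.000193). They had 5 to 14 counts in PGE2 plus poly I:C and 23 to 68 in poly I:C alone, and Exosc8 lost the call without PGE2 plus poly I:C D or poly I:C alone B (adjusted p up to 0.069). Gins2, Slc38a1, Exosc8, Dctpp1 and Stfa2 did not pass the low-count filter in the fit of the 8 libraries alone. The log2 fold change of Fuca2 was -3.39 without PGE2 plus poly I:C B, and that of Gins2 was -3.24 without PGE2 plus poly I:C C. Card19, a CARD-domain protein gene, stood at 727, 860.2, 657 and 665 CPM in PGE2 plus poly I:C and 1925, 2043, 1870.0 and 2120.0 CPM in poly I:C alone, the smallest adjusted p of a fall after Ccl4 (log2 -1.45 ± 0.10, adjusted p = 5.19e-28). Gpx1, a glutathione peroxidase gene, stood at 1087, 923, 1257 and 1022 CPM in PGE2 plus poly I:C and 1837, 2068, 1968 and 2147 CPM in poly I:C alone (log2 -0.91 ± 0.09, adjusted p = 1.54e-15). Neither overlapped.

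An earlier account of the 4 h groups of this series had named 38 genes for PGE2, and of the 30 tested here 12 rose and 4 fell (median log2 fold change 0.34). That list was drawn from this series and is not independent evidence of a direction. The genes that rose were Hvcn1, Il1b, Ifitm1, Ifitm2, Ifitm3, Sema7a, Plet1, Pde4b, Cd83, Nfkbie, Socs2 and Irf8, and those that fell were Ppt1, Xcr1, Naaa and Cited2.

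The same 24 h of PGE2 without poly I:C, measured in the other 8 libraries, changed 420 of 5273 genes (7.97%), 250 up and 170 down. Genes higher in both settings numbered 97, which is 36.6% of those higher with poly I:C and 38.8% of those higher without it. Genes lower in both numbered 36, 12.1% of those lower with poly I:C and 21.2% of those lower without it. Opposite calls were seen for 1 gene that was higher with and lower without poly I:C and for 8 genes that were lower with and higher without it. Across genes, which are not independent replicates, the 2 fold changes had a Pearson r of 0.27 and a Spearman rho of 0.241, with poly I:C given in one pair of groups only. The difference of the PGE2 effect with and without poly I:C was tested as an interaction in the same fit, and 173 genes passed (3.28%), 45 with a positive and 128 with a negative difference. Among them, 60 fell with poly I:C and were not called without it, 33 rose with poly I:C and were not called without it, and 37 were called without poly I:C and not with it. TMM factors were 0.7375 to 0.7852 with poly I:C and 1.2813 to 1.3364 without, so levels across the 2 settings depend on this scaling.

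**Figure D4:**
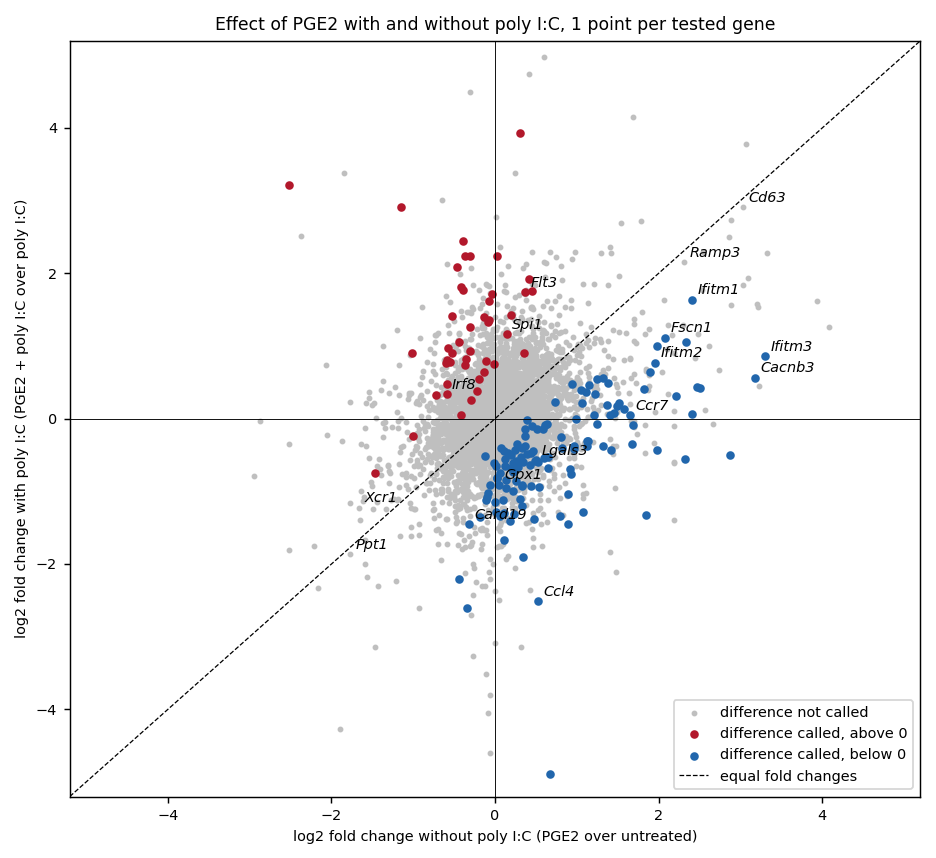
Log2 fold change of PGE2 plus poly I:C over poly I:C alone (vertical axis) against that of PGE2 over untreated cells without poly I:C (horizontal axis), 1 point per tested gene, red where the difference of effects was called above 0, blue where called below 0, grey elsewhere, with a dashed line of equal fold changes. Ifitm3 (0.86 with and 3.30 without poly I:C) and Ccr7 (0.05 and 1.64) lie below the line, and Irf8 (0.34 and -0.59) and Flt3 (1.74 and 0.37) lie above it.

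Irf8 was the gene called in opposite directions that rose with poly I:C. Without poly I:C it was at 2221, 2235, 2295 and 2184 CPM in PGE2-treated cells and 3288, 3378, 3432 and 3381 CPM in untreated cells (log2 -0.59 without poly I:C, adjusted p = 5.93e-10). The 4 libraries with PGE2 were all below the untreated ones there, the reverse of the order with poly I:C (difference 0.93 ± 0.11, adjusted p = 6.3e-11). Lgals3 was at 5650.0, 6078, 6158 and 6752 CPM in PGE2-treated cells and 4117, 4284, 4414 and 4545 CPM in untreated cells (log2 0.50 without poly I:C, adjusted p = 9.42e-09), so that it rose without poly I:C and fell with it (difference -1.07 ± 0.10, adjusted p = 6.39e-17). Lyz2 did likewise (log2 0.53 without poly I:C, adjusted p = 2.66e-05; difference -1.12 ± 0.17, adjusted p = 1.76e-07). Flt3 (log2 0.37 without poly I:C, adjusted p = 0.159; difference 1.37 ± 0.28, adjusted p = 0.000288) and Ciita (log2 -0.02 without poly I:C, adjusted p = 0.97; difference 0.77 ± 0.19, adjusted p = 0.00697) were not called without poly I:C.

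For Ccr7 and the Ifitm genes PGE2 gave the larger fold change without poly I:C. A fold change is relative to the level without PGE2, so the order of the changes in CPM can differ. Ccr7 was at 380.1, 289.7, 332 and 287 CPM in PGE2-treated cells and 100.0, 79.2, 99.2 and 140.3 CPM in untreated cells (log2 1.64 without poly I:C, adjusted p = 2.01e-23; difference -1.59 ± 0.15, adjusted p = 7.62e-17). The differences were -2.45 for Ifitm3 (adjusted p = 3.78e-36), -1.19 for Ifitm2 (adjusted p = 2.37e-10) and -0.77 for Ifitm1 (adjusted p = 4.63e-08). Fscn1 (difference -0.97 ± 0.23, adjusted p = 0.00262) and Cacnb3 (difference -2.62 ± 0.39, adjusted p = 1.34e-07; -3.22 without untreated D) followed the same order. Eva1b rose without poly I:C (log2 1.32 without poly I:C, adjusted p = 1.26e-09) and was not called with it (log2 -0.38, adjusted p = 0.166; difference -1.70 ± 0.25, adjusted p = 8.71e-08). Ccl4 was at 36.2, 23.1, 17.0 and 8.97 CPM with PGE2 and 17.1, 12.8, 17.8 and 14.9 CPM in untreated cells and was not called there (log2 0.53 without poly I:C, adjusted p = 0.535; difference -3.04 ± 0.46, adjusted p = 1.34e-07). Card19 (difference -1.13 ± 0.16, adjusted p = 4.4e-08) and Gpx1 (difference -0.95 ± 0.13, adjusted p = 6.83e-09) were not called without poly I:C either.

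No difference passed for Xcr1 (log2 -1.66 without poly I:C, adjusted p = 3.31e-12; difference 0.44 ± 0.32, adjusted p = 0.601), Ppt1 (log2 -1.77 without poly I:C, adjusted p = 2.01e-27; difference -0.09 ± 0.23, adjusted p = 0.915), Cd63 (log2 3.03 without poly I:C, adjusted p = 1.05e-14; difference -0.12 ± 0.42, adjusted p = 0.941) or Ramp3 (log2 2.31 without poly I:C, adjusted p = 9.07e-13; difference -0.16 ± 0.28, adjusted p = 0.868), which does not show that the effects were alike. These 4 genes were called in the same direction in both settings. Several cytokine and chemokine genes were too low without poly I:C for a difference to be seen, among them Il27, at 2.56 to 8.97 CPM with PGE2 and 0 to 11.9 CPM in untreated cells, and Cxcl11, at 0 to 2.59 CPM and 0 to 2.44 CPM.

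By list, the cDC1 identity genes had 1 rise and 9 falls among 22 tested without poly I:C, and 3 positive differences. The NF-kB list had 8 rises among 23 tested without poly I:C, with 1 positive and 4 negative differences. Apoptosis and survival genes, of which none was called with poly I:C, had 7 rises among 21 tested without it, and 5 negative differences. Proliferation genes had 14 falls among 25 tested without poly I:C. Of the interferon-stimulated genes 1 had a difference that passed, Gbp2 (difference 0.55 ± 0.17, adjusted p = 0.0481), which 12 of 21 alternative fits did not call (adjusted p up to 0.192).

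**Figure D5:**
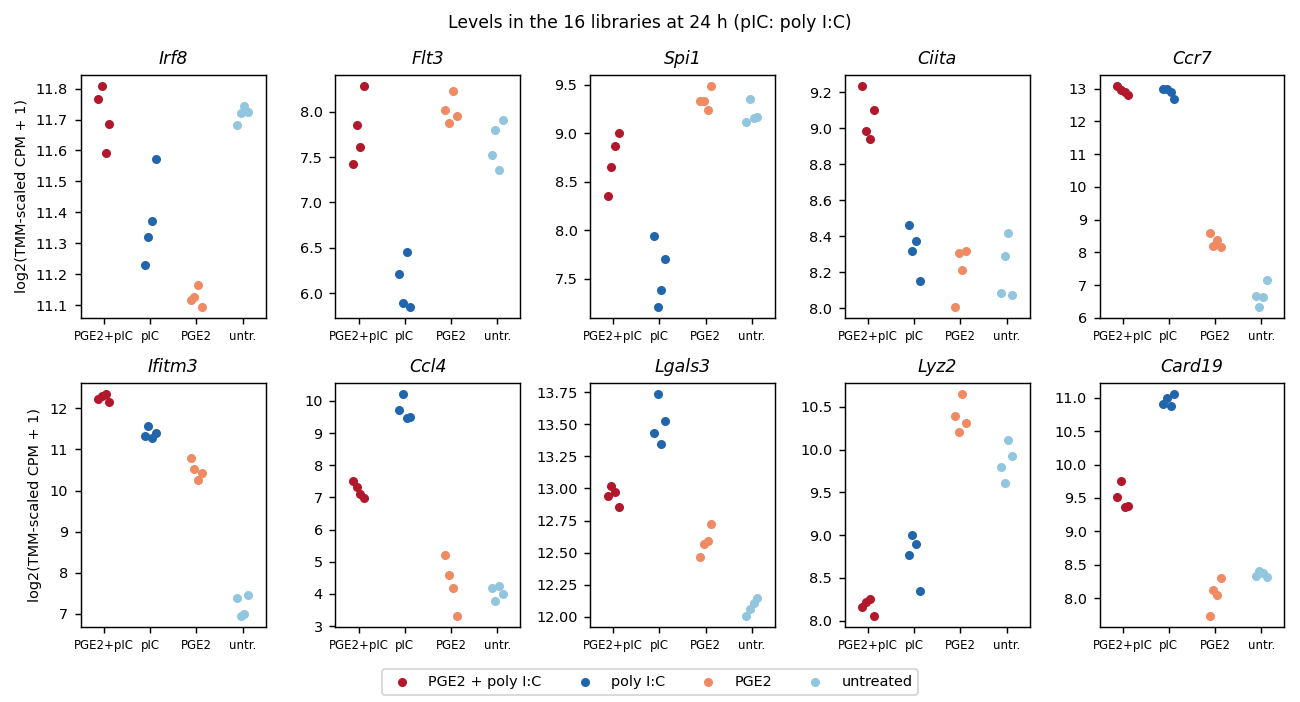
Log2(TMM-scaled CPM + 1) (vertical axis, which does not start at 0) of 10 genes in each of the 16 libraries at 24 h, in the order PGE2 plus poly I:C, poly I:C alone, PGE2, untreated, with 1 point per library. Irf8 is lowest in the libraries with PGE2 and no poly I:C (2184 to 2295 CPM), and Ccr7 overlaps between the groups with poly I:C and is higher with PGE2 (287 to 380.1 CPM) than untreated (79.2 to 140.3 CPM) without it.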

How the data were processed

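Bulk 3′ RNA sequencing with unique molecular identifiers was done on a NextSeq 500, per the labels' protocols. The authors derived the deposited table of counts with the Drop-seq pipeline on GRCm38 with Ensembl release 75, per the labels' protocols, and the submitters' processing notes name DESeq2 1.14.1. Neither an aligner nor the strand setting is given in the sources used, so overlapping and antisense genes cannot be told apart.

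From the counts, 20 lines whose symbols had become dates (0.105% of counts) were tested but never named, and 1 line with a text entry was left out. The 16 libraries at 24 h were fitted together with edgeR 4.0.16 in R 4.3.3 (TMM scaling, filterByExpr, robust quasi-likelihood fit, Benjamini-Hochberg over 5273 genes). The procedure was also run on counts simulated from the fitted means and spread under the same model. That run checks the code and cannot show how well the model suits these data. The standard error is the log2 fold change over the square root of F. Alternatives used DESeq2 1.42.0, other scalings, no filter, a replicate block, the 8 libraries alone and each library left out. Replicates differed by more than sampling noise (chi-square per degree of freedom 1.409 to 2.012). Totals of 271514 to 405468 counts limit precision for low genes.

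The text names the 12 largest rises and falls without overlap and with at least 20 CPM in the higher group, the 10 smallest adjusted p, a panel, called members of the lists and the 10 surest differences. Some genes are not reported here. Members and lists were chosen with earlier results of these data known.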

Additional observations from a re-analysis of the deposited data

Results flagged for a closer look

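The effect of PGE2 with poly I:C minus that without it passed the interaction test of edgeR (adjusted p of at most 0.05) for 40 of the 152 named genes tested, and the values in brackets are that difference on the log2 scale. It was positive for Ccr1 (1.31), Ciita (0.77), Dll4 (5.73), Flt3 (1.37), Gbp2 (0.55), Havcr2 (1.1), Hspa8 (0.74), Hvcn1 (2.61), Icam1 (0.55), Irf8 (0.93), Mier2 (2.85), Naaa (0.72), Ppfia1 (3.63) and Spi1 (1.02). The remaining ones were negative. Among chemokines, chemokine receptors, migration and costimulation, these were Ccl22 (-0.66), Ccl4 (-3.04), Ccr7 (-1.6), Cxcl16 (-0.55), Fscn1 (-0.97) and Cacnb3 (-2.62). Among Ifitm, MHC class II and lysosomal genes, these were Ifitm1 (-0.77), Ifitm2 (-1.19), Ifitm3 (-2.45), Ctss (-0.68), H2-DMa (-0.55) and Man2b1 (-0.83). Among S100, lysozyme and galectin genes with properdin, these were S100a10 (-0.46), Lyz2 (-1.12), Lgals3 (-1.07) and Cfp (-0.99). Among signalling and metabolic genes, these were Relb (-0.88), Socs2 (-2.08), Pde4b (-1.27), Pkm (-0.63) and Gpx1 (-0.95). Among the others, these were Card19 (-1.13), Eva1b (-1.7), Fuca2 (-2.25), Polr2g (-1.21) and Rab32 (-1.76). Of the 40 calls, 24 were made under every alternative run, 16 were lost under at least 1, and no difference changed sign. Those of Ccl22, Mier2 and Pkm were lost in 1 fit each, that of H2-DMa in 2, those of Ccr1 and Ppfia1 in 3, that of Relb in 4, those of Hvcn1, Icam1 and Pde4b in 5, and that of S100a10 in 7 (adjusted p up to 0.398). Those of Cxcl16 (up to 0.337) and Man2b1 (up to 0.22) were lost in 9 of 21, that of Naaa in 11 (up to 0.153), that of Gbp2 in 12 (up to 0.192) and that of Dll4 in 15 of 20 (up to 0.124). The difference of Dll4 has no measured size, since without poly I:C the gene had 0 counts with PGE2 and 3 counts in untreated cells. That of Ppfia1 rests on 1 count in poly I:C alone. Leaving out 1 library moved the difference by over 1.5 times for Cacnb3 (-3.22 without untreated D), Fuca2 (-3.01 without PGE2 plus poly I:C B) and Mier2 (3.44 without poly I:C alone A), and for Dll4 and Ppfia1 (without poly I:C alone D and B in that order).

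A single library stood far from the other 3 of its group in 16 of 304 groups of 4 examined by Dixon's test at 95%, and chance alone flags about 1 in 20. In PGE2 plus poly I:C these were Ch25h in library D (137.6 CPM), Eva1b in library C (138 CPM), Gins2 in library C (14.28 CPM), Hsp90ab1 in library D (2346 CPM), Hspa1a in library A (2194 CPM), Il1b in library D (190.0 CPM), Ramp3 in library A (2127 CPM) and Tnfaip2 in library D (1458 CPM). In poly I:C alone they were Cd63-ps in library C (27.55 CPM), Cx3cl1 in library D (411.3 CPM), Dll4 in library D (33.96 CPM), Fth1 in library A (26900.0 CPM), Nfkbie in library A (550.7 CPM), Ppfia1 in library B (4.888 CPM), S100a4 in library C (173.2 CPM) and Tmem8 in library C (7.872 CPM). Leaving out the library concerned ended the call of Hspa1a and not that of Hsp90ab1, Il1b, Ramp3, Tnfaip2, Fth1 or S100a4.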

How the results depend on the processing

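The 563 genes called between PGE2 plus poly I:C and poly I:C alone became 569 with library totals, 560 with the size factors of DESeq2, 429 with DESeq2 itself, 390 without a filter on low counts (17409 genes), 558 with the 8 libraries alone and 456 to 525 on leaving out 1 of these 8. The 106 genes past 1.5 on the log2 scale became 54 with the 8 libraries alone, where 3214 genes were tested, and 104 to 132 on leaving out 1 library. The 420 genes of PGE2 without poly I:C became 310 to 399 on leaving out 1 library. The 173 differences of effect became 81 without the filter and 129 to 170 on leaving out 1 library. In the fit with the replicate block these 4 counts were 581, 104, 442 and 196. Deviations of same-lettered libraries correlated by 0.0126 to 0.0277, each highest with its own letter. Counting noise in genes of few counts can hide an effect shared by a letter. Pairing was therefore neither shown nor excluded, and the main fit has no term for the letter. Of 152 named genes tested, 136 were called, 103 of them under every alternative run, and no called gene changed sign. Genes that did not pass the filter in the fit of the 8 libraries alone had 13 alternatives and the others 14. Isg15 was called with the replicate block and with the 8 libraries alone. DESeq2 did not call Ebi3, Ifit1, Ifit2, Ifi205, Gcsam, Lgals9, Socs2, Nr4a3, Malt1 or Nfkbie, which edgeR called. The same held for Calr, Man2b1, Ctsb, Grn, Tyrobp, Plk1, Stmn1 and Mcm6. The groups compared overlapped for the called genes Tnf, Gcsam, Cacnb3, Ifit2, Irgm1, Socs2, Nfkbie and Ptges3. They also overlapped for Ctss, Tyrobp, Ctsb, Grn, Laptm5, Fth1, Pmvk and Hspa5. Depth limits genes of few counts, such as Clec9a and the proliferation genes.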

Other observations

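The genes in this paragraph were chosen after their values were seen. Spi1, the gene of the myeloid transcription factor PU.1, stood at 326, 400.4, 466.5 and 511 CPM in PGE2 plus poly I:C and 244, 147, 165 and 207.5 CPM in poly I:C alone (log2 1.16 ± 0.15, adjusted p = 2.16e-10). Csf2rb, the signalling chain of the GM-CSF receptor, stood at 1709, 1757, 1837 and 2018 CPM in PGE2 plus poly I:C and 1179, 1066, 1240.0 and 1317 CPM in poly I:C alone (log2 0.61 ± 0.10, adjusted p = 1.15e-07). Both rose without overlap, in cells kept with growth factors. Il1r2, the decoy receptor of interleukin 1, stood at 138, 182, 176 and 314.5 CPM in PGE2 plus poly I:C and 53.6, 97.8, 102 and 64.1 CPM in poly I:C alone (log2 1.38 ± 0.22, adjusted p = 1.35e-07), and Cx3cl1, the gene of fractalkine, at 589, 638, 638 and 727 CPM and 292, 283.5, 275.5 and 411 CPM (log2 1.03 ± 0.15, adjusted p = 4.29e-09). Il1r2 thus rose along with Il1b. Ch25h, whose enzyme makes the antiviral oxysterol 25-hydroxycholesterol, stood at 247, 245, 233 and 138 CPM in PGE2 plus poly I:C and 589.7, 484, 504 and 555 CPM in poly I:C alone (log2 -1.32 ± 0.17, adjusted p = 2.91e-11). Polr2g, a subunit of RNA polymerase II, stood at 506, 589.5, 519 and 426 CPM in PGE2 plus poly I:C and 1038, 1124, 1008 and 1230.0 CPM in poly I:C alone (log2 -1.11 ± 0.12, adjusted p = 1.31e-14). Both fell without overlap.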
